A study of Mus musculus with 42 samples.

Results

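The genes described here are 10 epithelial genes of the lung that are read as markers of its alveoli and airways: Sftpa1, Sftpb, Sftpc, Sftpd, Abca3, Lamp3, Ager, Scgb1a1, Scgb3a1 and Scgb3a2. They were chosen by gene symbol for what they are known to mark and not by a measured value, although earlier results of these data were known. Of these 10 genes, 9 were matched to 11 probes, out of 20018 gene symbols matched on the array. Scgb3a2 had no probe that could be matched through the annotation used here, and no value is given for it. Adult male Muta™Mouse, a transgenic line that carries a recoverable bacterial lacZ reporter and was about 11 weeks old, received the polycyclic aromatic hydrocarbon BkF (benzo(k)fluoranthene) in olive oil by oral gavage each day for 28 days. D0 received olive oil alone, and the daily dose per kg of body weight was 25 mg in D1, 50 mg in D2 and 100 mg in D3, so the transgene, the oil and the daily gavage were common to every mouse. Tissues were taken 72 h after the last gavage, and 42 arrays from 15 mice gave lungs of 4, 3, 4 and 4 mice at D0, D1, D2 and D3, livers of 4, 2, 3 and 4 mice and forestomachs of 4, 3, 4 and 3 mice. Each array carried tissue RNA in Cy5 beside a common reference, a pool of RNA from mouse cell lines, in Cy3, RNA came from a random section of each organ, and each level below is the log2 ratio of tissue to reference after loess normalisation within the array.

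Pulmonary surfactant is a film of lipid and protein that keeps alveoli from collapsing. Alveolar type 2 cells make it, store it in lamellar bodies and secrete it, while the flat alveolar type 1 cells form the surface for gas exchange. Along the airways, club cells and other secretory cells release secretoglobins, and their cytochrome P450 enzymes make them a site where polycyclic aromatic hydrocarbons are metabolised. Among the genes measured here, Sftpa1 and Sftpd encode the collectins of surfactant, Sftpb and Sftpc its small hydrophobic proteins, Abca3 the lipid pump of lamellar bodies and Lamp3 a membrane protein of the same organelles. Ager encodes a receptor that is abundant on alveolar type 1 cells, Scgb1a1 the main secretory protein of club cells and Scgb3a1 a secretoglobin of secretory cells in the larger airways.

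The 250 bases upstream of the annotated start are shown for 5 of the members, since the results below turn on how these genes differ from each other. Sftpa1 and Sftpb stand for the surfactant proteins, Lamp3 for a lamellar body gene whose ratio did not follow theirs, Scgb3a1 for the member with the widest range between lungs, and Abca3 for the most matches to the dioxin response core. The sequences are those of RefSeq on GRCm38.p6, written 5′ to 3′ on the strand of the gene, and Sftpc, Sftpd and Scgb1a1 had no entry. Capitals mark matches, on either strand, to CTCAAG (a core bound by Nkx2-1), TGTTTNC (a forkhead core) and GCGTG (the core of the dioxin response element).
Sftpa1, chr14:41131538-41131787, plus strand: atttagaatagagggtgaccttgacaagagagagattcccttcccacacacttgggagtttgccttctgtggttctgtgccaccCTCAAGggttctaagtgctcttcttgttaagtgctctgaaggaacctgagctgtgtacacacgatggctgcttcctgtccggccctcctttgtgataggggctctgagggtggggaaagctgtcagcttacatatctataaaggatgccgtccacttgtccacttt
Sftpb, chr6:72304360-72304609, plus strand: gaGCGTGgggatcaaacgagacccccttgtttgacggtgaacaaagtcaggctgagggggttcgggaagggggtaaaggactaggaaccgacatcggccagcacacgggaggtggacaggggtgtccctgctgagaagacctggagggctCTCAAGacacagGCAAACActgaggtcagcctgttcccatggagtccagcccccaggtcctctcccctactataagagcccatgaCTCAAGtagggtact
Abca3, chr17:24351773-24352022, plus strand: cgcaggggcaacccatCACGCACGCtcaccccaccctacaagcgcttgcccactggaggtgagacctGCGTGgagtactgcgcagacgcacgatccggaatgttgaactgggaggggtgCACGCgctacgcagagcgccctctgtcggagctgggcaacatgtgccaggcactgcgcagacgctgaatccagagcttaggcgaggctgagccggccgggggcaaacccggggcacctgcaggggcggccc
Lamp3, chr16:19706366-19706615, minus strand: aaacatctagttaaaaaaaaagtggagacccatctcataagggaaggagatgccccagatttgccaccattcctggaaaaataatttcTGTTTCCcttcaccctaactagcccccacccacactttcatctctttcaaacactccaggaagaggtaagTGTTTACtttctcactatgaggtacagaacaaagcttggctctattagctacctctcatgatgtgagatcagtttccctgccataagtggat
Scgb3a1, chr11:49663345-49663594, plus strand: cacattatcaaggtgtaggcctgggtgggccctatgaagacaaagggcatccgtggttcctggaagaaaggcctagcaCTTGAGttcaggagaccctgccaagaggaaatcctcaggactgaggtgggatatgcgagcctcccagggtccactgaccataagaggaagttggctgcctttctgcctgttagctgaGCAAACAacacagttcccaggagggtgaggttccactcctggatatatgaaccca
CTCAAG or its reverse complement was found 1 time for Sftpa1, 2 times for Sftpb and 1 time for Scgb3a1. TGTTTNC was found 1 time for Sftpb, 2 times for Lamp3 and 1 time for Scgb3a1. GCGTG was found 4 times for Abca3 and 1 time for Sftpb. Ager, the other member with an entry, held 0 matches to each. Among 32851 promoter windows of the same length, 13.3% held CTCAAG, 17.8% held TGTTTNC and 28.2% held GCGTG. These matches describe letters in the window, and binding was not tested.

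Several properties of the arrays bear on every value that follows. Cyp1a1, the detoxifying enzyme induced by such hydrocarbons, rose in lung from a log2 ratio of 2.67 at D0 to 9.48 at D3 (limma, adjusted p = 0.0034). Defining markers were present in the labelled tissues, with 13 of 14 alveolar type 1 genes above background in every lung and 6 of 6 hepatocyte genes in every liver. Lungs and forestomachs were hybridised on slides 1 to 4 and livers on slides 5 and 6, so liver and slide cannot be told apart. Each lung slide held 1 lung per dose, except that slide 4 had none of D1, and a dose always took the same position on the slide, so dose and position cannot be told apart. The lung of mouse 12 (D2) stood apart, with a skeletal muscle list at a mean log2 ratio of 4.70 against at most -0.25 in the other lungs. The lung of mouse 7 (D1) carried a glandular stomach list at 4.00, against 1.19 in the next lung. The lung of mouse 12 was the lowest for 5 of the 9 members, and the median dose changes are given with and without these lungs.

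The surfactant genes were among the brightest signals of the lung arrays and changed little with dose. The log2 ratio of Sftpc was 7.24, 7.02, 7.05 and 7.18 in the D0 lungs, 7.31, 7.19 and 6.76 at D1, 7.47, 6.50, 7.08 and 7.16 at D2 and 7.48, 6.74, 7.54 and 7.38 at D3. The dosed lungs lay on both sides of the vehicle lungs, and the lowest was that of mouse 12. The ratio of Sftpb was 6.02, 5.83, 6.06 and 6.14 at D0, 6.33, 6.0 and 5.83 at D1, 6.48, 5.69, 5.83 and 6.19 at D2 and 6.59, 5.98, 6.65 and 6.45 at D3. At D3, 3 of the 4 lungs lay above all vehicle lungs and the other was among them. The collectin Sftpa1 ran from 6.20 to 6.43 at D0 and from 5.82 to 6.53 over the dosed lungs, and Sftpd from 7.24 to 7.75 and from 6.75 to 7.88. Both collectins had dosed lungs above and below the whole vehicle range.

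The lamellar body genes had lower ratios. Lamp3 read 3.42, 3.00, 2.71 and 3.20 at D0, 2.77, 2.93 and 3.08 at D1, 3.04, 2.13, 2.90 and 2.77 at D2 and 2.93, 2.70, 2.05 and 3.04 at D3. No dosed lung exceeded the vehicle range, while 3 of 11 lay below it. Abca3 ran from 3.02 to 3.43 at D0 and from 2.56 to 3.69 over the dosed lungs, of which 2 were above and 1 below the vehicle lungs. Ager, the alveolar type 1 gene, read 5.22, 4.86, 4.93 and 5.28 at D0, 5.42, 5.08 and 4.75 at D1, 5.42, 4.79, 4.73 and 5.33 at D2 and 5.59, 5.13, 5.43 and 5.41 at D3. Of the 4 D3 lungs, 3 were above all vehicle lungs for Ager, while at D1 1 lung was above and 1 below them and at D2 2 were above and 2 below.

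The ratios of the airway genes varied most. Scgb1a1 read 7.52, 6.19, 6.78 and 7.36 at D0, 7.58, 6.49 and 6.57 at D1, 7.77, 5.70, 6.38 and 7.51 at D2 and 7.85, 6.37, 7.68 and 7.58 at D3. Its high and low lungs occurred at every dose. Slide accounted for 77.4% of the variance of Scgb1a1 between lungs after dose, against a median of 34.8% over all probes. Scgb3a1 read 3.82, 3.06, 1.17 and 2.57 at D0, 5.46, 3.97 and 3.96 at D1, 4.60, 2.96, 2.86 and 5.01 at D2 and 3.70, 4.16, 5.64 and 4.09 at D3. The 3 D1 lungs were all above the vehicle lungs, while 1 of 4 D3 lungs and 2 of 4 D2 lungs fell within the vehicle range. Among all probes compared, 1.72% had D1 lungs entirely above vehicle. Slide accounted for 13.4% of the variance of Scgb3a1.

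**Figure D1:**
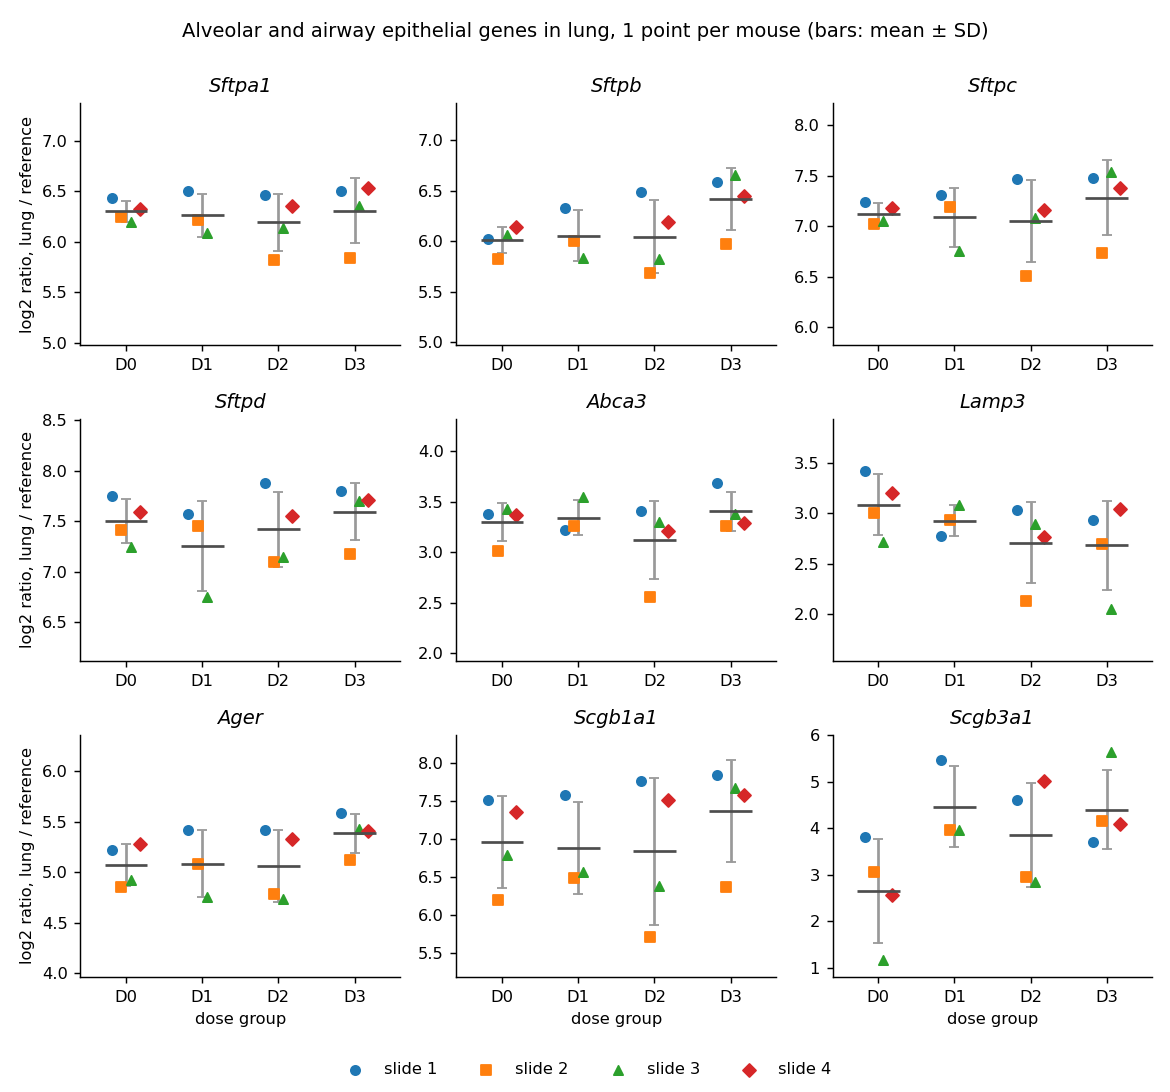
Log2 ratio of lung RNA to the common reference (y axis) for the 9 measured genes by dose group (x axis, D0 to D3), 1 point per lung with its slide as symbol, bars showing mean ± SD and the y range differing between panels. Scgb3a1 spanned 1.17 to 5.64, and slide 2 lungs were the lowest for Scgb1a1 in every group.

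None of the 9 members passed the test in lung (limma, adjusted p of at most 0.05 over 32697 probes and a change of at least 1.5-fold). Over all probes, 0% were called at D1, 0.0153% at D2, 0.0336% at D3 and 0.0336% for a linear trend with dose, so few genes of any kind were called. At an unadjusted p under 0.05 there was 1 member at D1 (Scgb3a1), 0 at D2 and 2 at D3 and for the trend (Scgb3a1 and Sftpb), where 1.77%, 4.25%, 8% and 8.49% of all probes lay under that p. The median change of the 9 members was -0.04 at D1, -0.08 at D2 and 0.16 at D3 on the log2 scale, beside -0.009, -0.005 and 0.004 for all probes. Estimates were above 0 for 2 of 9 members at D2 and for 8 of 9 at D3. The D2 median of the ratios rested on the lung of mouse 12, without which it was 0.09 with 8 of 9 members above 0, Scgb1a1 moving from -0.12 to 0.26 and Sftpa1, Sftpc, Sftpd, Abca3 and Ager also turning positive, with values of at most 0.11. In the sample channel alone, described below, the medians at D1, D2 and D3 were 0.06, -0.07 and -0.0084, with 5, 2 and 4 of 9 members above 0, so the signs at D1 and D3 differed from those of the ratios. The D2 median of the sample channel was -0.05 without mouse 12, with 3 of 9 above 0. Without the lung of mouse 7 the D1 median of the ratios was -0.15. In such bulk tissue, fewer cells of a type and less RNA per cell cannot be told apart.

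Scgb3a1 had the largest estimates of the members. Its ratio differed from vehicle by 1.81 (SE 0.67, 95% confidence interval 0.38 to 3.24) at D1, by 1.20 (interval -0.13 to 2.53) at D2 and by 1.74 (SE 0.62, interval 0.41 to 3.07) at D3, a 3.34-fold ratio. The adjusted p of the D3 difference was 0.46. Without the lungs of mice 7 and 12 together, the D1, D2 and D3 estimates were 1.31, 1.5 and 1.74. Leaving out single lungs moved the D3 estimate between 1.25 (without D0 mouse 4) and 2.13, and the D2 estimate down to 0.71 (without D0 mouse 4). With the dye-normalised ratios of the scanner software the D1, D2 and D3 estimates were smaller, at 0.54, 0.33 and 0.63. From the sample channel alone, scaled to the 75th percentile of each array, the differences were 3.89, 2.15 and 3.03 with adjusted p of 1.00, 1.00 and 1.00, and single lungs carried part of each. They were 2.35 at D1 without mouse 7, 1.16 at D2 without mouse 15 and 2.0 at D3 without mouse 20.

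For the other members the estimates and intervals below are those of the ratio. Sftpb at D3 differed by 0.40 (SE 0.18, interval 0.01 to 0.80, adjusted p = 0.60), and its other probe by 0.23. On the same arrays the 10 spike-in controls, RNA added in known amounts, were higher at D3 than at D0 by 0.27 to 0.49. Ager differed by 0.32 (interval -0.08 to 0.71) and Lamp3 by -0.40 (interval -0.89 to 0.09). Sftpa1 differed by 0.0082 (interval -0.35 to 0.36), and its sample channel, described below, fell outside that interval. Scgb1a1 differed by 0.41 with an interval of -0.58 to 1.39. Each of the 4 slides held 1 D0 and 1 D3 lung, and within slides 1 to 4 the D3 lung differed by 0.34, 0.18, 0.89 and 0.22 for Scgb1a1. The differences were also above 0 on 4 of 4 slides for Sftpb and Ager, and below 0 on 4 of 4 for Lamp3. With slide as a block none of these was called, at adjusted p (limma) of 0.42 for Scgb1a1 (SE 0.20), 0.26 for Sftpb, 0.28 for Ager and 0.45 for Lamp3. In the sample channel the sign on 4 of 4 slides was the same for Scgb1a1, Sftpb and Lamp3, and below 0 for Ager.

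**Figure D2:**
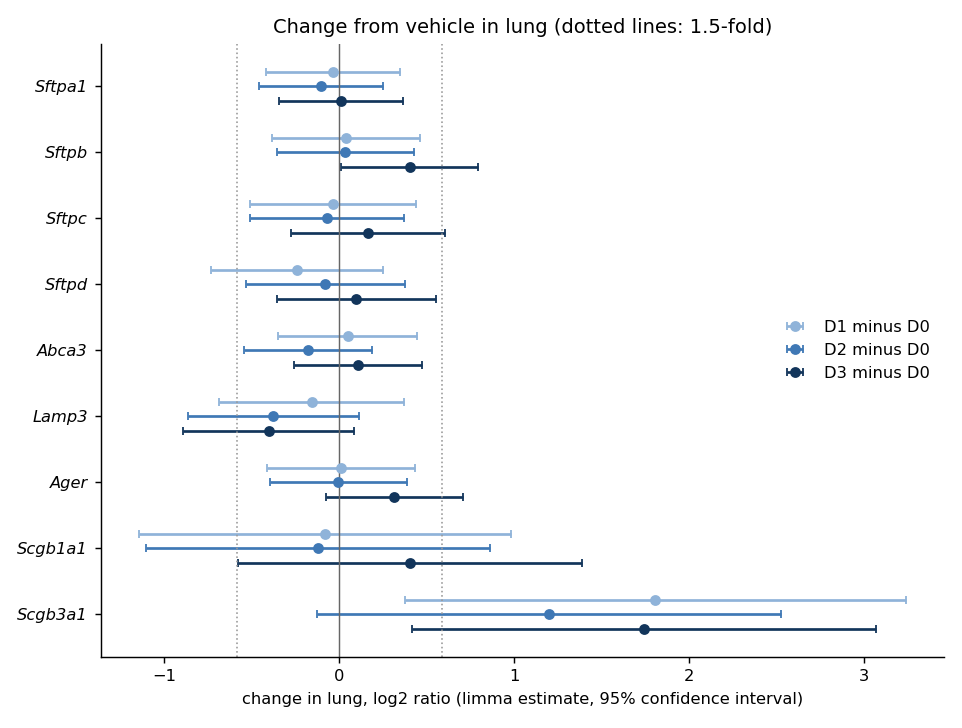
Change of each member in lung at D1, D2 and D3 against D0 on the log2 scale (x axis, limma estimate with 95% confidence interval, dotted lines at 1.5-fold) by gene (y axis). Scgb3a1 had the largest estimates, 1.81, 1.20 and 1.74, and the widest intervals.

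The reference channel of these genes was not constant, which sets what the ratios can show. The same reference RNA was on every array, yet the Cy3 signal of Sftpc ran from 4236 to 14160 on the lung arrays and from 42.5 to 61.0 on the liver arrays. For Scgb1a1 the Cy3 signal was 3284 to 10882 on lung arrays and 41.7 to 55.8 on liver arrays. Abca3, which was well above background in the reference channel of every array, differed far less between these tissues. Its Cy3 signal was 3445 to 4433 on lung arrays and lower on liver arrays, at 2728 to 3137. Between tissues, the Cy3 signal of Sftpa1, Sftpb, Sftpc, Sftpd, Ager and Scgb1a1 was thus higher on lung arrays, where the Cy5 signal was high. That of Lamp3 was alike on lung and forestomach arrays, at 7247 to 9822 and 7044 to 9085, and lower on liver arrays, at 5698 to 6707. The source of the Cy3 signal was not tested. From lung to lung the log2 signals of both channels ran in opposite directions for Sftpc (r = -0.85), Scgb1a1 (-0.71), Lamp3 (-0.66), Sftpd (-0.52) and Sftpb (-0.42). Between tissues, dividing by such a signal compresses the ratio. The vehicle lungs differed from the vehicle livers by 7.06 in the log2 ratio of Sftpc and by 11.25 in its log2 sample signal. Sftpc was well above background in 0 of the 4 vehicle livers, so both values depend on the floor of the liver arrays. Among lungs the reverse held for some members. The SD between lungs was larger for the ratio than for the sample signal for Scgb1a1 (0.69 and 0.18), Sftpc (0.30 and 0.15), Sftpd (0.32 and 0.22) and Sftpb (0.30 and 0.20), and smaller for Sftpa1, Ager and Scgb3a1.

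Over the 15 lungs, the ratio of Scgb1a1 had a Pearson r of -0.86 with its reference signal and 0.41 with its sample signal, each scaled to the 75th percentile of its channel. The SD between lungs on the log2 scale was 0.69 for the reference signal of Scgb1a1 and 0.18 for its sample signal. Sftpd had corresponding r of -0.81 and 0.22. Lamp3 and Scgb3a1 differed from these, with r between ratio and sample signal of 0.93 and 0.92. Their r between ratio and reference signal were -0.30 and 0.87, so both channels of Scgb3a1 moved with its ratio. These r are descriptions, since the ratio contains both signals.

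In the sample channel alone, Scgb3a1 was the most variable member. Relative to the 75th percentile of each array, its log2 signal was 1.55, 1.03, -0.34 and -0.52 in the D0 lungs of mice 1, 2, 3 and 4. It was 7.40, 2.54 and 3.03 at D1, 3.37, 0.55, 0.87 and 5.53 at D2 and 1.45, 3.90, 1.94 and 6.55 at D3. The lungs of mice 7, 20 and 15, 1 from each dosed group, were the highest. Sftpc varied over a narrow range, from 9.71 to 10.27 over all 15 lungs. For Sftpa1 the D3 difference was -0.49 in the sample channel, against 0.0082 for the ratio, and for Ager -0.38 against 0.32. Both rested in part on the lung of mouse 20, the lowest of all lungs for both genes at 6.52 and 3.81. Without it the sample channel differences were -0.18 and -0.09. Within slides 1 to 4 the D3 lung differed from the D0 lung by -0.24, -0.50, -0.98 and -0.24 for Sftpa1. For Ager these were -0.08, -0.41, -0.77 and -0.28, and Sftpd was also below 0 on 4 of 4 slides. Neither Sftpa1 nor Ager passed the test. With all lungs the direction for Sftpa1, Sftpc, Sftpd and Ager at D3 depended on whether the reference channel was used.

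Other genes of the same cell types were read from lists of markers. Of 16 other alveolar type 2 genes tested, 0 were called at D3 and their median change was 0.03, with 9 estimates above 0 and 7 below. Egfl6 (-0.83) and the surfactant-processing protease Napsa (-0.62) had the lowest estimates, and Foxa2 (0.17), a transcription factor of lung epithelium, and Etv5 (0.28) the highest. Of 13 alveolar type 1 genes 0 were called, with a median of -0.24 and 9 estimates below 0. Among them were the basement membrane collagen Col4a3 (-0.81) and Emp2 (-0.81), while the caveolar gene Cav1 was at 0.21 and Igfbp2 at 0.98 (SE 0.21, adjusted p = 0.20). Over the D3 lungs the mean of the alveolar type 1 list ran from 2.84 to 3.78, on both sides of its D0 mean of 3.49. The part of the lowest D3 lung in the median of -0.24 was not tested.

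The airway lists had mostly positive estimates at D3, again with 0 genes called. Of 16 club and secretory genes, 14 were above 0 with a median of 0.36, and of 16 ciliated genes 14 with a median of 0.23. At D2 most lay below 0, with 10 of 16 secretory genes (median -0.14) and 15 of 16 ciliated genes (median -0.25), and at D1 the medians were 0.23 and 0.02. These too depended on single lungs. Over the D3 lungs the secretory list had a mean of 3.03 and a median of 2.79, with 3.87 in the lung of mouse 20. Over the D0 lungs its mean was 2.55 and its median 2.59. The mean of the ciliated list at D2 was -0.22 from vehicle with all lungs and -0.04 without mouse 12. That of the secretory list at D1 was 0.69 and 0.25 without mouse 7. At D2 the secretory mean was 0.22 from vehicle and 0.45 without mouse 12, opposite in sign to the median of its genes. The highest among secretory genes were Reg3g (1.67), an antimicrobial lectin, and Bpifa1 (1.75, SE 0.87, adjusted p = 0.64), an airway surface protein. Upk3a (-0.59) and Nupr1 (-0.17) were the lowest. Among ciliated genes, Ccno (0.81, SE 0.17, adjusted p = 0.20), needed to make the many centrioles of ciliated cells, and Tekt1 (0.46) were the highest, and Tppp3 (-0.12) and Ak7 (-0.06) the lowest. A heart muscle list also stood higher, with 7 of 7 estimates above 0 and a median change of 2.06 at D1, 0.82 at D2 and 1.60 at D3. None of its genes was called at any dose. Its mean was 1.74 from vehicle at D1 and 1.28 without mouse 7, and 0.89 at D2 and 1.34 without mouse 12.

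Scgb3a1 moved with the club and secretory list and with the heart muscle list from lung to lung. Over the 15 lungs its ratio correlated with the mean of the club and secretory list with Pearson r = 0.89 (permutation test, adjusted p = 0.00012 over 6 relations) and Spearman rho = 0.86 (adjusted p = 0.00066). The r was 0.88 without the 2 lungs farthest from the median, 0.90 for deviations from slide means and 0.91 without mice 7 and 12. With the heart muscle list r was 0.71 (permutation test, adjusted p = 0.0084, rho = 0.72 with adjusted p = 0.011), 0.76 for deviations from slide means, 0.56 for deviations from dose means and 0.64 without mice 7 and 12. With Scgb3a1 read from its sample channel alone, the r were 0.91 and 0.81. The relations were chosen after the values were seen.

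The lists were highest in the same few lungs. The club and secretory list was at 4.11 in the lung of mouse 7, 3.87 in that of mouse 20 and 3.54 in that of mouse 15, against 2.06 to 3.14 in the others. The heart muscle list was at 4.52, 4.53 and 4.37 in these lungs, and ran from 0.47 to 3.69 in the others. Among the D0 lungs the club list was at 2.06 to 2.94 and the heart list at 0.47 to 3.69. The part of these tissues in the Scgb3a1 values was not tested. Scgb1a1 had r of 0.66 with the club list (permutation test, adjusted p = 0.013, rho = 0.69 with adjusted p = 0.011), 0.58 without the 2 farthest lungs. The other 3 relations did not pass, with r of 0.25 for Scgb1a1 and the heart muscle list (permutation test, adjusted p = 0.45), 0.20 for Scgb1a1 and the glandular stomach list (adjusted p = 0.62) and 0.44 for Scgb3a1 and the glandular stomach list (adjusted p = 0.17). For Scgb1a1 and the heart muscle list r was 0.56 for deviations from slide means. It was 0.46 with the sample channel of Scgb1a1 and 0.0075 without mice 7 and 12.

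The ratios of 6 members moved together across lungs. All 15 pairs among Sftpa1, Sftpb, Sftpc, Sftpd, Ager and Scgb1a1 correlated over the 15 lungs (permutation test, adjusted p of at most 0.05 over 36 pairs). With the pair of Abca3 and Scgb1a1 this made 16 of 36 pairs, with r from 0.63 to 0.91, and the same number by Spearman rho. The highest were Sftpb with Ager (r = 0.91) and Sftpa1 with Sftpc (r = 0.91). For the 15 pairs r was 0.77 to 0.93 without the 2 lungs farthest from the median, and 0.44 to 0.96 for deviations from slide means, by which 13 of the 15 pairs passed. The pairs that did not were Sftpa1 with Sftpb (r = 0.54) and Sftpa1 with Ager (r = 0.44). Within single slides 59 of 60 values of r were positive, each from 3 or 4 lungs. The permutations, also those of deviations from slide means, shuffled lungs regardless of slide. Slide accounted for 39.7% (Sftpb) to 77.4% (Scgb1a1) of the variance of these 6 members after dose. The pair of Abca3 and Scgb1a1 (r = 0.63) rested on the 2 farthest lungs, without which r was 0.26.

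Most of this shared movement was absent from the sample channel. With the sample signal alone, 3 of the 15 pairs passed the same test, with a median r of 0.31, whereas the reference signals of the same genes had a median r of 0.72. The pairs that passed in both were Sftpa1 with Sftpd (r = 0.86 in the sample channel), Sftpa1 with Ager (r = 0.72) and Sftpd with Ager (r = 0.66). In all, 9 of 36 pairs passed in the sample channel, and the other 6 involved the lamellar body genes. Lamp3 correlated there with Ager (r = 0.86), Sftpa1 (r = 0.84), Abca3 (r = 0.78) and Sftpd (r = 0.71), although its 8 pairs in the ratios had r from -0.19 to 0.47. Abca3 correlated there with Sftpb (r = 0.72) and Ager (r = 0.69). The lung of mouse 20 was the lowest for each of Lamp3, Ager, Sftpa1, Sftpd and Abca3 in the sample channel. Without it 3 of 36 pairs passed, of which 2 had passed with it, Sftpa1 with Sftpd (r = 0.89) and Lamp3 with Ager (r = 0.76). The pair gained was Sftpb with Scgb1a1 (r = 0.74), 1 of the 15 pairs that moved together in the ratios. Lamp3 with Sftpa1 then had r = 0.53 and with Sftpd 0.52, and neither passed. Scgb3a1 had no pair that passed in the ratios or in the sample channel. The signals of an array share its labelling, slide and scan.

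**Figure D3:**
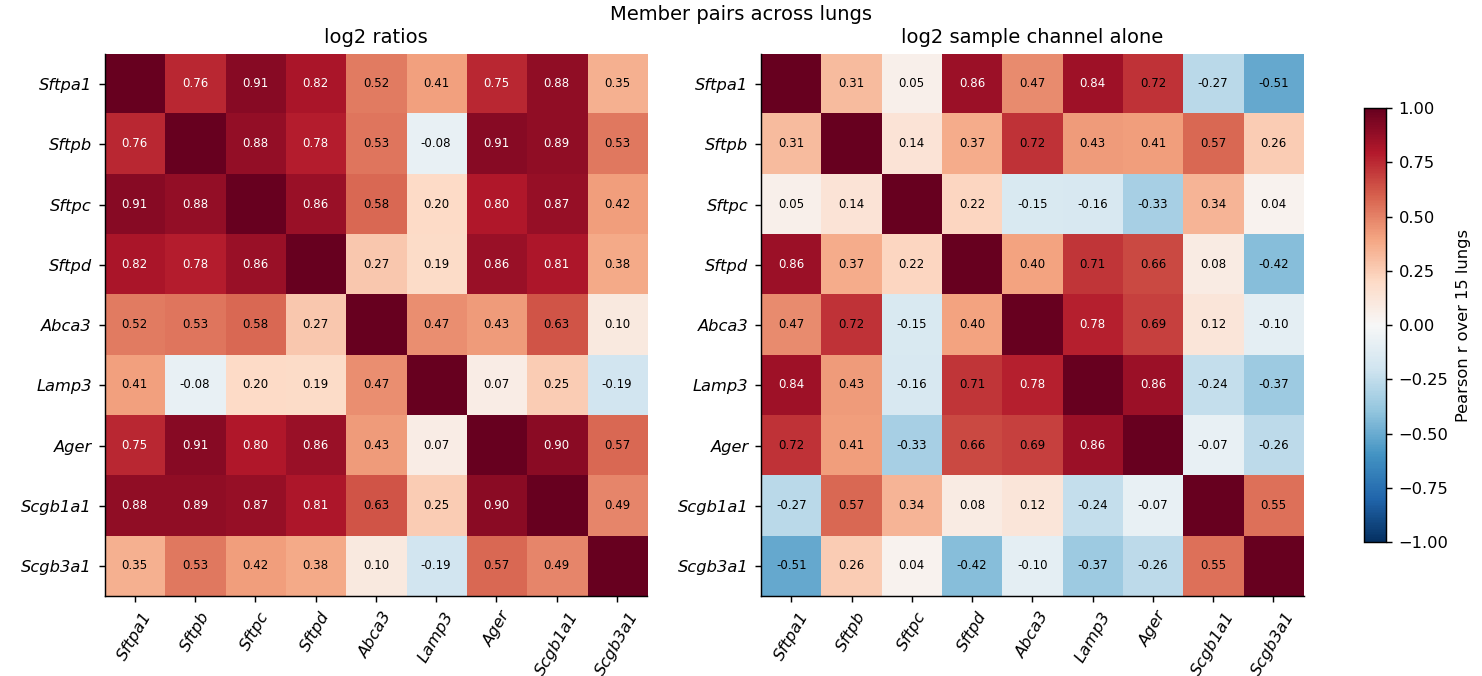
Pearson r over 15 lungs for each pair of members, from the log2 ratios (left) and from the log2 sample signal alone, scaled to the 75th percentile of each array (right), with members on both axes and the colour scale from -1 to 1. The block of high r among surfactant genes, Ager and Scgb1a1 on the left, 0.75 to 0.91, thins on the right, where the r of Lamp3 with Sftpa1, Sftpd, Abca3 and Ager, 0.71 to 0.86 with all lungs, rested in part on the lung of mouse 20.

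The genes whose ratios deviated most like those of Sftpc were read over the same 15 lungs from deviations from dose means, among 14901 genes. They were Crkl (r = 0.94), Cyp2f2 (0.93), a cytochrome P450 of club cells, Pik3r3 (0.93), Cbr2 (0.92) and Msl1 (0.91), with Sftpa1 ranked between them. For Scgb1a1 they were Ptprb (0.95), Klhl22 (0.94), Ednra (0.93), Cldn5 (0.92) and Fam161b (0.92), with Sftpb ranked between Ednra and Cldn5, and Ptprb and Cldn5 are endothelial genes. From the ratios themselves, r with Sftpc was 0.62 for Crkl and 0.79 for Msl1, and 0.94, 0.92 and 0.92 for Cyp2f2, Pik3r3 and Cbr2. All these likenesses carry the same reference channel and slides.

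All 9 measured members were higher in vehicle lung than in the other vehicle tissues. Against vehicle liver 9 of 9 were called higher, where 23.4% of probes were, with log2 ratio differences from 2.19 (Abca3) to 7.06 (Sftpc). Against vehicle forestomach 9 of 9 were called, where 18.4% of probes were, with differences from 2.15 (Scgb3a1) to 6.40 (Sftpc). Since the genes were chosen as lung genes, their direction here describes the tissues. Since the reference signal of these genes was also higher on lung arrays, the folds below are given from the sample signal alone, scaled to the 75th percentile of each array.

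Where no vehicle array of a tissue rose well above background, the fold is a lower bound, set against the dimmest signal measured on each of those arrays. Compared with liver, lung had at least 2314-fold more Sftpc signal, 1770-fold more Scgb1a1, 423-fold more Sftpb, 76.0-fold more Ager and 2.85-fold more Scgb3a1. Compared with forestomach it had at least 431-fold more Sftpa1, 331-fold more Sftpb and 59.8-fold more Ager. Abca3 (2.39-fold) and Lamp3 (10.7-fold) were measured on all 4 vehicle liver arrays. These folds depend on the scaling, and after loess and quantile normalisation each was larger, with 9125-fold for Sftpc against liver, 4.12-fold for Abca3 and 19.9-fold for Lamp3. By its ratio the order of tissues for Lamp3 was lung, forestomach and liver, with lung ratios of 2.71 to 3.42 at D0 above those of both other tissues, which overlapped each other at -1.32 to -0.71 and -1.61 to -1.29. In the sample channel liver stood before forestomach, at means of 2.94 and 2.74, and their values again overlapped, so the order of these tissues was not settled. In the sample channel alone Scgb3a1 did not pass the test, with log2 differences of 1.56 from liver (limma, adjusted p = 0.15) and 1.18 from forestomach (adjusted p = 0.28). Abca3 differed less from liver, by 1.26, and passed.

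**Figure D4:**
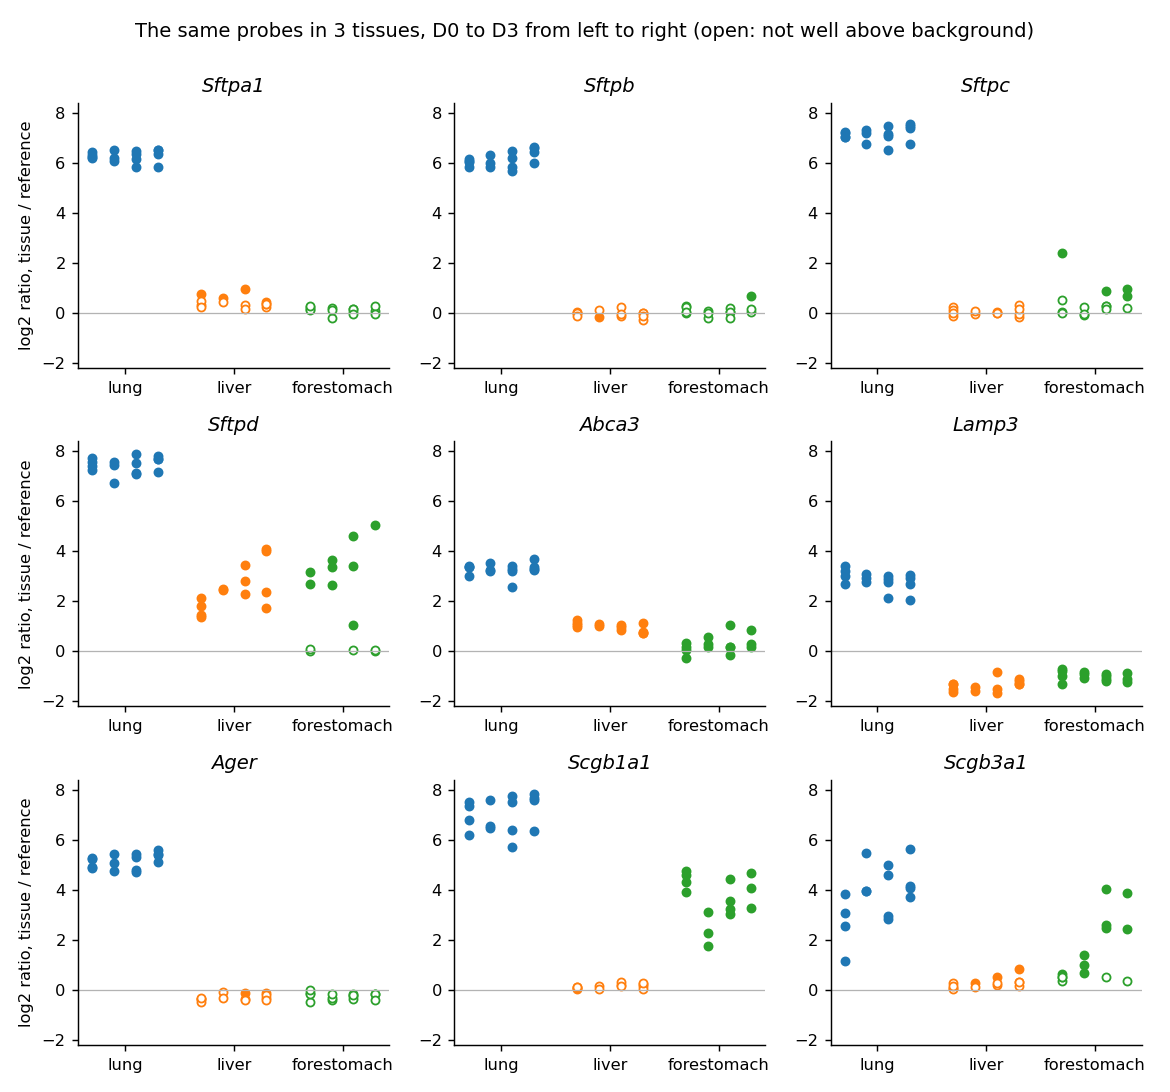
Log2 ratio of tissue to reference RNA (y axis) for each member in lung, liver and forestomach (x axis, D0 to D3 from left to right within a tissue), 1 point per array and open points not well above background. Outside lung Sftpa1, Sftpb and Ager lay between -0.49 and 0.96 and Sftpc reached 2.38 on 1 forestomach array, while Sftpd and Scgb1a1 were measured in forestomach and Sftpd in liver.

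Sftpd, a collectin of innate defence that other epithelia also make, had the widest range of ratios among members in both liver and forestomach. Abca3 and Lamp3 were above background on all 13 liver and 14 forestomach arrays. In liver its log2 ratio was 2.12, 1.37, 1.44 and 1.81 at D0, 2.44 and 2.51 at D1, 2.80, 3.47 and 2.29 at D2 and 2.38, 4.08, 1.75 and 4.00 at D3. Of the 9 dosed livers 8 lay above all vehicle livers, and that of mouse 19 (D3) did not. The share of all probes with such a count over the 9 dosed livers was not measured. Scgb1a1, which was not well above background in any liver, had 7 of 9 dosed livers above all vehicle livers, and Scgb3a1 had 6 of 9. The reference signal of Sftpd was above background on 3 of 13 liver arrays. Among all probes compared, 5.95% had D1 livers and 4.53% had D2 livers entirely above vehicle. The Sftpd difference was 0.79 at D1, 1.17 (adjusted p = 0.42) at D2 and 1.37 (SE 0.45, interval 0.40 to 2.34, adjusted p = 0.46) at D3, and 0.87 at D3 on its other probe. None of the 6 members tested in liver was called at any dose, where 0%, 0.0427% and 0.0525% of all probes were. At an unadjusted p under 0.05 there were 0, 1 and 2 members, Sftpd at D2 and D3 and Abca3 at D3 (-0.26), against 1.54%, 10.7% and 7.78% of all probes.

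The 3 livers with the highest Sftpd ratios, those of mice 17, 20 and 12, were also the 3 highest for the fibroblast list. The fibroblast list was at -0.84 in the liver of mouse 12, -1.26 in that of mouse 17, -1.83 in that of mouse 20 and -1.89 in that of mouse 13, against -2.53 to -2.19 in the others. The Sftpd ratios of these 4 livers were 3.47, 4.08, 4.00 and 2.29. The liver next in Sftpd, at 2.80 in mouse 11, was among the low ones for the list, and that of mouse 13 was below 4 livers with low list values. Skeletal muscle genes were at 4.23 in the liver of mouse 17, against at most -0.28 in the others. The spike-in controls in liver differed from D0 by -0.88 to -0.57 at D2 and by -0.73 to -0.52 at D3. The part of these in the Sftpd difference was not tested. Scgb1a1 was not well above background on any of the 13 liver arrays.

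In forestomach, the keratinised upper part of the rodent stomach, the secretory genes were measurable. Scgb1a1 read 4.75, 3.91, 4.32 and 4.61 at D0, 2.27, 1.77 and 3.11 at D1, 4.43, 3.23, 3.57 and 3.04 at D2 and 3.29, 4.06 and 4.68 at D3. All 3 D1 arrays were below all vehicle arrays, as for 9.19% of probes compared, whereas D2 and D3 overlapped vehicle. The D1 difference was -2.02 (SE 0.40, interval -2.89 to -1.14, adjusted p = 0.26), and the D3 difference -0.39. None of the 6 members tested was called at D1, D2 or D3, nor was any probe (0% at each dose), though 12.1%, 7.6% and 2.22% of probes had an unadjusted p under 0.05. With the D0 and D1 forestomachs fitted alone, Scgb1a1 was called (limma, adjusted p = 0.033), as were 333 probes in all. The members under that p were Scgb1a1 at D1 and D2, and Scgb3a1 at D2 and D3.

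The forestomach arrays fell into separate sets by the glandular stomach list, genes of the acid-secreting and mucous stomach that adjoins the forestomach. In 9 arrays its mean log2 ratio was 5.10 to 6.24, and in the other 5 it was 0.54 to 1.70. Sftpd was well above background in 9 of the 9 arrays with glandular genes, at 1.04 to 5.04, and in 0 of the other 5, at -0.00 to 0.08. Scgb1a1 ran the other way, with 1.77 to 4.61 (median 3.23) in the 9 and 3.91 to 4.75 (median 4.43) in the 5. The share of all probes that separated the 9 from the 5, as Sftpd did, was not measured. All 3 D1 arrays were among the 9. With the glandular stomach mean as a covariate, the D1 difference of Scgb1a1 was -1.68 (adjusted p = 0.77).

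Scgb3a1 in forestomach was high on some dosed arrays. It read 0.65, 0.35, 0.51 and 0.52 at D0, 1.39, 1.00 and 0.66 at D1, 0.52, 4.04, 2.48 and 2.59 at D2 and 3.89, 0.36 and 2.44 at D3. Of the vehicle arrays 1 of 4 was well above background. The difference was 1.90 at D2 (adjusted p = 0.59) and 1.72 at D3 (adjusted p = 1.00). Sftpc was well above background on 4 of 14 forestomach arrays, at 2.38 in mouse 2 (D0), 0.89 in mouse 11, 0.96 in mouse 17 and 0.68 in mouse 16. The lung ratios of Sftpc, from 6.50 to 7.54, lay above all of these.

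**Figure D5:**
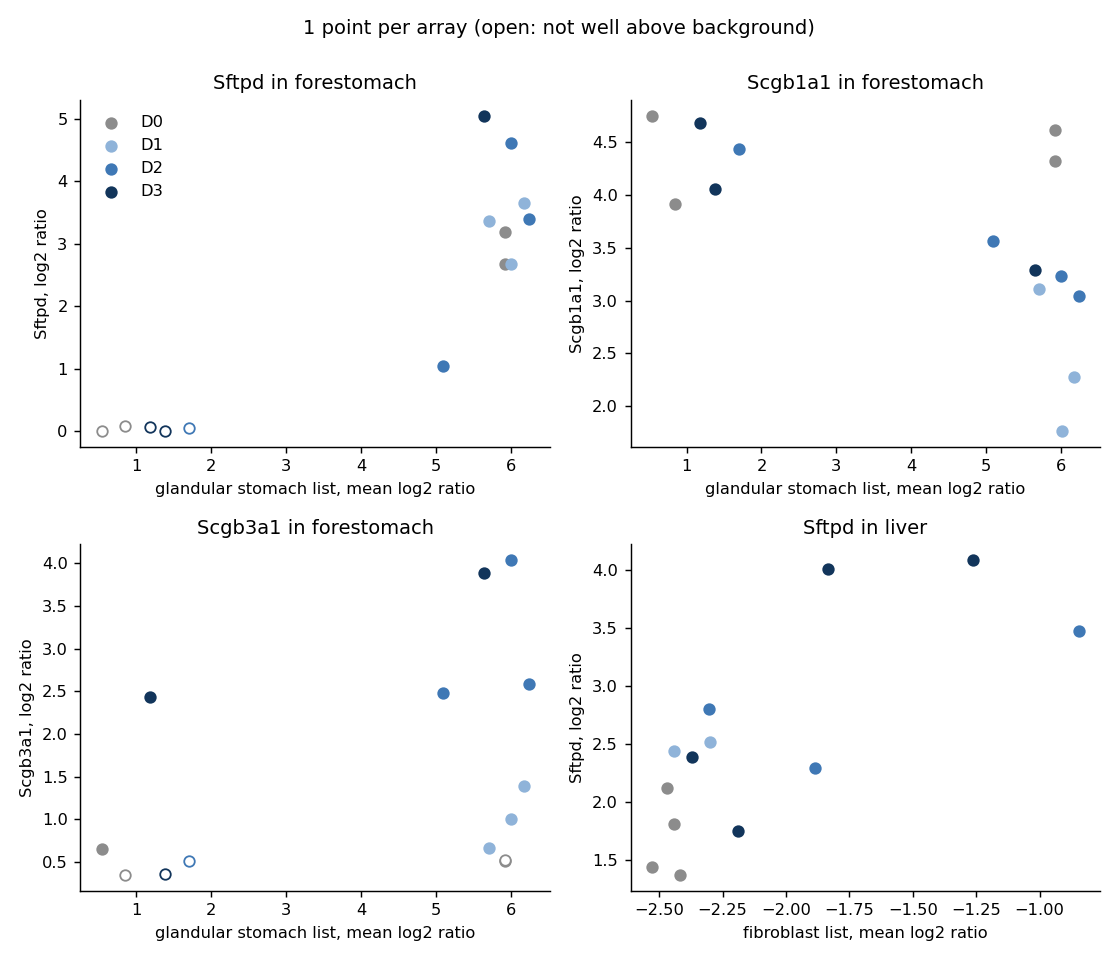
Log2 ratio of Sftpd, Scgb1a1 and Scgb3a1 in forestomach (y axes) against the mean log2 ratio of the glandular stomach list (x axes), and of Sftpd in liver against the fibroblast list, 1 point per array coloured by dose and open where not well above background. Sftpd in forestomach was at 1.04 or more where the glandular list was above 5 and near 0 elsewhere.

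The D3 effects in lung were set against those in the other tissues by a direct test of the difference. None of the 6 members tested differed between lung and liver, where 0.0153% of probes did, and none of the 6 between lung and forestomach, where 0.0122% did. Before adjustment 1 member, Lamp3, differed between lung and liver at the 0.05 level, as did 5.32% of probes, with -0.40 in lung, 0.21 in liver and a difference of -0.61 (limma, adjusted p = 0.88).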

How the data were processed

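RNA of 42 tissue samples from 15 mice was measured on two-colour Agilent arrays against a common reference, with no dye swap. The authors deposited scanner files of red and green median signal intensity from Feature Extraction 10.7.3.1 (lung and forestomach) and 11.0.1.1 (liver), and a table of normalised log2 ratios, in which the 13 liver columns did not line up with the probe names and were not used. The deposited scanner files also held log10 ratios of red over green that the scanner software had dye-normalised, which served as an alternative. Intensities without background subtraction were loess-normalised within arrays (limma 3.58.1, R 4.3.3), and spots of a probe were averaged over 59305 non-control spots. Probes were named through RefSeq accessions, for 26413 of 55681 probes. A gene's main probe was the brightest. Probes above background on at least 3 lung, 2 liver or 3 forestomach arrays were tested with limma and Benjamini-Hochberg adjustment, and a call needed an adjusted p no higher than 0.05 together with a 1.5-fold change. The study's own test, MAANOVA, was not used here. Correlations used 100000 permutations of all lungs regardless of slide, two-sided (NumPy 2.4.6). The number of arrays limits the precision. The named genes were all members, and from each list the 2 highest and 2 lowest at D3. The members and lists were chosen with earlier results of these data known. Tissues of 1 mouse carried its number in the labels, which paired samples by animal. The fits were tested on simulated data. Alternatives covered background correction, scanner ratios, the authors' ratios, filtering, averaging probes, slide and mouse as blocks, and leaving out single arrays. The sample channel alone, with and without mice 7, 15 and 20, the glandular stomach covariate, and leaving out mice 7 and 12 were chosen after seeing the data.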

Additional observations from a re-analysis of the deposited data

Results flagged for a closer look

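Of 63 groups of 4 lungs, livers or forestomachs checked, 3 held 1 array far from the others, and chance gives about 1 in 20. In lung at D3, Sftpd was 7.18 in mouse 17, with the other 3 lungs at 7.70 to 7.80. In lung at D0, Abca3 was 3.02 in mouse 2, with the others at 3.37 to 3.43. In liver at D3, Abca3 was 1.13 in mouse 19, with the others at 0.73 to 0.77. The lungs of mouse 2 and mouse 17 were both on slide 2.

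Of 36 comparisons of a member's change in lung with that in another tissue, 1 had every dosed array of one tissue on the other side of its vehicle mean from every dosed array of the other. This was Lamp3 at D3, where the change in lung minus that in liver was -0.61 (limma, adjusted p = 0.88).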

How the results depend on the processing

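In lung and liver, 0 members were called at any dose under every alternative, and in vehicle lung 8 or 9 of 9 were higher than in liver and in forestomach. With the D0 and D1 forestomachs fitted alone, 1 member was called, Scgb1a1 (-2.02, adjusted p = 0.033, 333 probes called against 0). With the mouse as a replicate block, 9 and 9 members were called in the vehicle contrasts and 0 and 0 for the D3 differences, and the block changed no other call. All-probe calls in lung at D3 were 3 with scanner ratios, 26 with slide as a block and 23 without mice 7 and 12, against 11, and in liver at D3 46 on the D0 and D3 livers alone, 9 with scanner ratios and 10 with slide as a block, against 16. Pairs of members that correlated numbered 27 with scanner ratios, 9 in the sample channel alone, 3 there without D3 mouse 20, 13 for deviations from slide means and 15 to 22 without single lungs. For Scgb3a1 the vehicle contrast was 1.56 with liver and 1.18 with forestomach in the sample channel, and 1.33 with forestomach in scanner ratios, none of them called. Direction changed, with no call in any case, in the sample channel for lung at D3 in Sftpa1 (-0.49), Sftpc (-0.0084), Sftpd (-0.19) and Ager (-0.38), for lung at D1 in Sftpc (0.16), Scgb1a1 (0.14) and Ager (-0.29), and for forestomach at D3 in Scgb1a1 (0.049) and Sftpd (-0.014). It also changed in scanner ratios for Abca3 in lung at D3 (-0.024), Sftpd in forestomach at D3 (-0.36) and the D3 effect of Scgb3a1 in lung minus forestomach (-0.37), in the authors' ratios for Sftpa1 in lung at D3 (-0.0084), and with slide as a block for Sftpd in forestomach at D3 (-0.52). With the glandular stomach covariate it changed in forestomach for Scgb3a1 (-0.25) and Sftpd (-0.29) at D1 and Sftpd (-0.32) at D2. Without single arrays, Sftpa1 in lung at D3 ran from -0.065 to 0.16, Sftpd in forestomach at D3 from -1.46 to 1.06 and the Scgb3a1 difference of lung and forestomach from -0.91 to 0.85. The causes were not tested. The authors' ratios were not run for liver, nor the probe filter for pairs, since all members passed it in lung. Signals near background limit Sftpa1, Sftpb, Sftpc, Ager and Scgb3a1 outside lung, Scgb1a1 in liver and Sftpd on part of the forestomach arrays.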
